A study of Mus musculus with 6 samples.

Results

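MHC class II molecules carry peptides from the endosomes of antigen presenting cells to the cell surface, where CD4+ T cells read them. The genes described here are the 9 genes of that route: H2-Aa, H2-Ab1 and H2-Eb1 for the chains of the surface molecule, Cd74 for the invariant chain that fills the groove until the endosome is reached, H2-DMa and H2-DMb1 for the exchanger that loads peptide, H2-Oa and H2-Ob for the inhibitor of that exchanger, and Ciita for the transactivator that switches the others on. They were chosen by name, from knowledge of the pathway and with earlier results of these data known, out of 57127 genes listed. Dendritic cells, macrophages and B cells are the usual users of the route, and the epididymis holds a dense net of mononuclear phagocytes in and under its epithelium. Ciita itself is switched on by interferon γ, in part through IRF1.

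The libraries were made from total RNA of the whole epididymis of adult C57BL/6 mice, 3 from wild type (WT) mice and 3 from mice lacking occludin, a tight junction protein, in every cell (Ocln-KO). The WT libraries held between 35066211 and 38870780 counts and the Ocln-KO libraries between 30646424 and 32776523. The methods speak both of RNA taken separately from 3 pairs of mice and of pooled RNA samples, so n counts libraries, and p-values measure the spread between libraries. An extraction text in the sample records names prefrontal cortex, whereas the tissue is given as whole epididymis, and Crisp1, a secreted protein of the epididymal epithelium, stood at 14900 ± 2190 CPM in WT (counts scaled to library size with TMM factors; SD, n = 3). Ocln was read at 85.9, 78.8 and 91.8 CPM in the WT libraries against 15.1, 15.3 and 14.9 CPM in Ocln-KO. It fell by 2.50 on the log2 scale (edgeR's quasi-likelihood test, Benjamini-Hochberg adjusted p = 0.000108). Ocln-KO replicate 3 stood apart from the other Ocln-KO libraries on the first principal component of all genes, at 86.3 against 17.7 and 29.1, with the WT libraries between -52.8 and -37. Ciita, Cd74 and the calls in the gene lists are therefore given with and without it. With it left out, the promoter factors, the genes of the T cell contact, the B cell markers and the T cell markers had 0 calls in either direction, as they had with it.

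The class II genes share a promoter module, an X box bound by the RFX complex followed by a Y box bound by NF-Y, on which the transactivator sits. Of the 9 genes, 6 had an entry among the RefSeq promoters (GRCm38.p6), which run from 250 bases before the transcription start. In 5 of these 6, the letters GNAAC, found at the start of X boxes, were followed after 20 to 30 bases by GATTGG, the core of the Y box. Over all 32851 entries, on both strands, 0.551% held that pair within the 250 bases, and 14.6% held GATTGG alone. The 5 stretches are printed 5′ to 3′ on the strand of the gene, with both motifs in capitals, because a module of this kind is where the transactivator sits. H2-DMa had no match in its window, and H2-Ab1, Cd74 and Ciita had no entry. The stretches lie at chr17:34287862-34287910 (minus strand) for H2-Aa, and on the plus strand at chr17:34305770-34305817 for H2-Eb1, chr17:34153091-34153139 for H2-DMb1, chr17:34238812-34238857 for H2-Ob and chr17:34092297-34092345 for H2-Oa.
H2-Aa: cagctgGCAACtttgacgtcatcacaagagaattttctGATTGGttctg
H2-Eb1: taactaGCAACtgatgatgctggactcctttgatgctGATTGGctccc
H2-DMb1: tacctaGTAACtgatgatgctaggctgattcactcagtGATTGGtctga
H2-Ob: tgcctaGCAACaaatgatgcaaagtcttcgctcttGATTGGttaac
H2-Oa: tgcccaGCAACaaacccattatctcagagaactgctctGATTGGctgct
The spacing between the motifs was 27 bases in H2-Aa, H2-DMb1 and H2-Oa, 26 in H2-Eb1 and 24 in H2-Ob. The Y box began between 44 and 62 bases before the transcription start in all 5. A match of letters is a description of the sequence and no measure of binding.

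No member passed the test between genotypes. Counts sufficed for a test of 7 of the 9 genes. At an adjusted p under 0.05 (edgeR), 0 of the 7 were called higher or lower, whereas 3.91% of the 19691 genes tested were called higher in Ocln-KO and 5.04% lower, or 8.95% in either direction. These were 770 genes higher and 992 lower, a split that turned to 1175 higher and 674 lower when libraries were scaled by total counts only. The fold thresholds of the study's methods, over 2 or under 0.5, when put on the edgeR calls left 1.49% of all genes tested higher and 1.7% lower, and again 0 members. At an unadjusted p under 0.05 (edgeR), 2 of the 7 were higher, Ciita and Cd74, beside 2734 of all 19691 genes tested. At that cut 2989 of all genes tested were lower. DESeq2, the tool named in the study's methods, called Ciita and Cd74 higher at an adjusted p under 0.05, and limma-voom called 0 members. With DESeq2, Ciita also passed the fold threshold of 2 (log2 fold change 1.57, DESeq2 adjusted p = 0.0016), and Cd74 did not (log2 fold change 0.76). The estimates were above 0 for 6 of the 7 and below 0 for H2-Aa, with a median of 0.59 on the log2 scale, beside 0.0081 over all genes tested. The Ocln-KO libraries lay wholly above the WT libraries for 2 of the 7, again Ciita and Cd74, as they did for 16.9% of all genes tested, while 36.3% had no overlap in either direction.

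**Figure D1:**
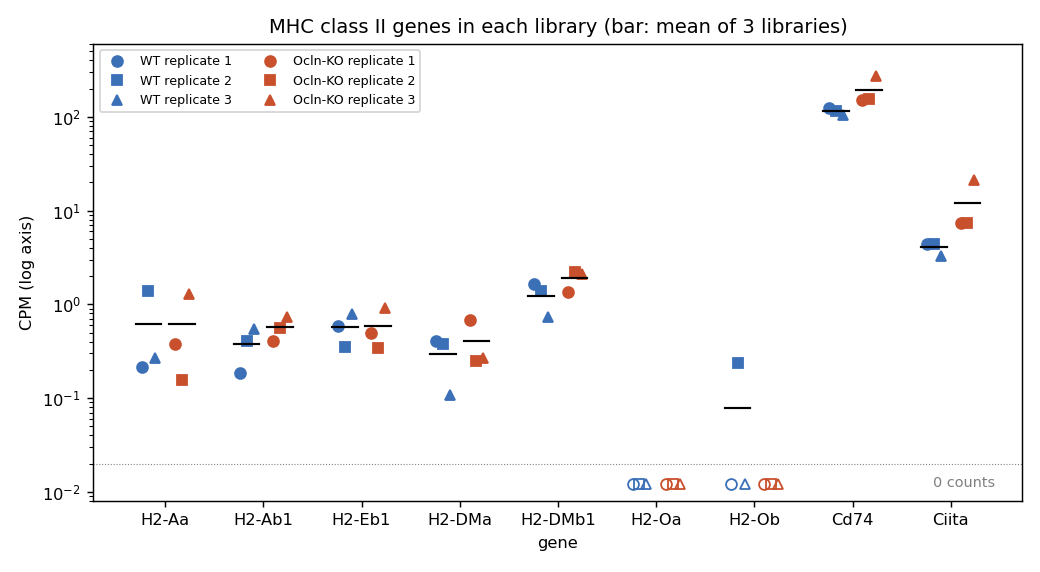
CPM of the 9 class II genes in each of the 3 WT and 3 Ocln-KO libraries, on a log axis, with bars at group means and open symbols for a count of 0. Cd74 and Ciita lie higher in every Ocln-KO library than in any WT library, with Ocln-KO replicate 3 far above the rest, while the 7 genes of chromosome 17 stay at low counts with overlapping groups.

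Ciita, the transactivator (chr16:10480014-10531064, plus strand, GRCm38.p6), had 4.44, 4.45 and 3.29 CPM in WT, against 7.36, 7.44 and 21.2 CPM in Ocln-KO. The groups did not overlap, and Ocln-KO replicate 3 was far above the other Ocln-KO libraries. The means were 4.06 ± 0.67 and 12.0 ± 7.96 CPM (SD, n = 3 each), a fold of 2.96, and the log2 fold change was 1.56 (SE 0.43; edgeR adjusted p = 0.0598). Without Ocln-KO replicate 3 the estimate was smaller, 0.87, but passed the test (adjusted p = 0.0438), and with Ocln-KO replicate 1 left out instead it was 1.82 (adjusted p = 0.0423). Over 13 alternative fits the adjusted p ran from 0.0016 to 0.195 and was under 0.05 in 5. Exons of Ciita overlap those of its neighbour Dexi, in which 1.46% of the windows of 50 bases in Ciita transcripts recur.

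Cd74, the invariant chain, had 124, 115 and 104 CPM in WT, against 150, 156 and 273 CPM in Ocln-KO. Here too the groups did not overlap, and Ocln-KO replicate 3 was the highest library. The means were 115 ± 10.1 and 193 ± 69.5 CPM (SD, n = 3 each), a fold of 1.69, and the log2 fold change was 0.75 (SE 0.22; edgeR adjusted p = 0.0744). It was 0.42 without Ocln-KO replicate 3 (adjusted p = 0.0429) and 0.91 with replicate 1 left out instead (adjusted p = 0.0471). Over 13 alternative fits the adjusted p ran from 0.00786 to 0.221 and was under 0.05 in 4. No window of 50 bases in Cd74 transcripts recurred in another annotated gene, though the microRNA gene Mir5107 overlaps its exons.

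The surface chains were read at between 5 and 47 counts per library. H2-Aa, the α chain of I-A (chr17:34282744-34287823, minus strand), had 8, 47 and 10 counts in WT and 12, 5 and 44 in Ocln-KO. A single library of each genotype, WT replicate 2 and Ocln-KO replicate 3, held most of them, and the groups overlapped fully. The log2 fold change of H2-Aa was -0.0060 (SE 0.95; edgeR adjusted p = 0.998), and it moved between -1.20 and 1.33 as single libraries were left out.

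H2-Ab1, the β chain of I-A (chr17:34263227-34269418, plus strand), had 7, 14 and 20 counts in WT and 13, 18 and 25 in Ocln-KO. Its range in Ocln-KO began inside that of WT, and the log2 fold change was 0.59 (SE 0.54; edgeR adjusted p = 0.512). H2-Eb1, the β chain of I-E (chr17:34305867-34316674, plus strand), had 22, 12 and 29 counts in WT and 16, 11 and 31 in Ocln-KO, with a log2 fold change of 0.03 (SE 0.53; edgeR adjusted p = 0.975). C57BL/6 mice carry the b haplotype, in which the partner α chain of I-E is not made. Its pseudogene entry H2-Ea-ps was listed at 0 in all 6 libraries, as was H2-Eb2.

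The exchanger genes were at similar counts. H2-DMb1 (chr17:34153191-34160229, plus strand) had 61, 47 and 27 counts in WT and 43, 71 and 71 in Ocln-KO, the most of any member on chromosome 17. Its Ocln-KO libraries ran from within the WT range to above it, and the log2 fold change was 0.60 (SE 0.40; edgeR adjusted p = 0.361). H2-DMa (chr17:34119693-34139101, plus strand) had 15, 13 and 4 counts in WT and 22, 8 and 9 in Ocln-KO, with a log2 fold change of 0.43 (SE 0.68; edgeR adjusted p = 0.716). Sequence shared with other genes bears on both: 22.7% of the windows of 50 bases in H2-DMb1 transcripts recur in the paralogue H2-DMb2, which had 1 count in 1 library, and 8.43% of those in H2-DMa recur in the overlapping gene Brd2.

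The inhibitor genes had next to no counts. H2-Oa (chr17:34092379-34095234, plus strand) was listed at 0 in all 6 libraries, and H2-Ob (chr17:34238905-34245908, plus strand) had 8 counts in WT replicate 2 and 0 in the other 5. A count of 0 allows up to 3 counts, or between 0.0802 and 0.0942 CPM in these libraries, for counting error only. Exons of H2-Oa also overlap those of BC051537, in which 15.5% of the windows of 50 bases in H2-Oa transcripts recur. Neither gene was tested, and no ratio of inhibitor to exchanger could be formed.

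Per length, Cd74 was read at a far higher level than Ciita, and the other members were read lower than Cd74 as well, though their counts carry the limit described below for their stretch of chromosome 17. In CPM per kb of exon, Cd74 stood at 68.2 in WT and 115 in Ocln-KO. Ciita stood at 0.426 and 1.26 on that scale. H2-DMb1 stood at 0.741 and 1.12, H2-Eb1 at 0.295 and 0.302, H2-Ab1 at 0.147 and 0.222, H2-Aa at 0.163 and 0.161, and H2-DMa at 0.086 and 0.116. The ranges of H2-Aa, H2-Ab1, H2-Eb1 and H2-DMa over the 6 libraries overlap one another, so these 4 have no order among themselves. Those of Ciita and H2-DMb1 also overlap each other. The range of H2-Eb1 reaches into those of Ciita and H2-DMb1, and that of H2-Aa into that of Ciita. Over the 6 libraries the 7 members on chromosome 17 together held 743 counts, and Cd74 alone held 31462.

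These low counts were shared by most neighbours of the class II genes. The 7 members of chromosome 17 lie in a stretch from Angptl4 to Gtf2h4 (chr17:33774900-35673750, 1.9 Mb) in which no protein-coding gene reached a mean of 20 CPM over the 6 libraries. The stretch was delimited after the values were seen. Of its 113 protein-coding genes, 97 (85.8%) were under 1 CPM and 44 (38.9%) were listed at 0 in all libraries. Of the same number of genes just before it, with olfactory and vomeronasal receptors set aside, 39 (34.5%) were under 1 CPM and 7 were at 0. Of the same number just after it, 60 (53.1%) were under 1 CPM and 35 were at 0. Over all 20593 protein-coding genes, 36.1% were under 1 CPM and 16.0% were at 0. These shares count genes by CPM without regard to length.

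**Figure D2:**
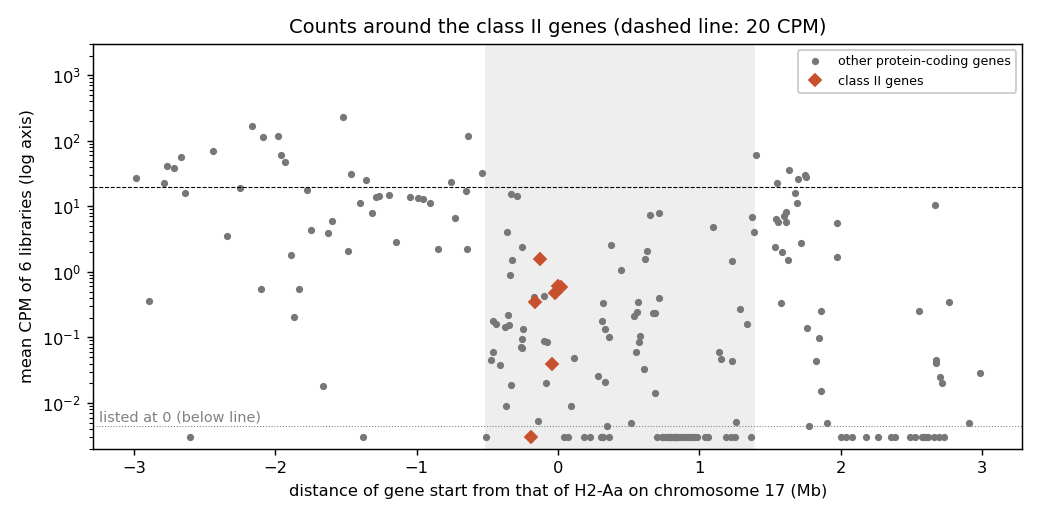
Mean CPM over the 6 libraries (log axis) of protein-coding genes, olfactory and vomeronasal receptors left out, within 3 Mb of the start of H2-Aa on chromosome 17, against the distance between gene starts; the shaded stretch has no gene at 20 CPM, and points below the dotted line are listed at 0. The class II genes (diamonds) share their low counts with the other genes of the shaded stretch, while genes at 20 CPM or more lie on both sides of it.

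Some genes that every cell uses lay within the stretch at counts as low, while others there were read at higher levels, the highest being the ribosomal protein gene Rps18 at a mean of 15.4 CPM, with Neu1 at 7.5, Vars2 at 6.88 and Gtf2h4 at 4.06 CPM. Csnk2b, the regulatory subunit of casein kinase 2, Lsm2, of a ring that binds RNA, and Ddx39b, of the complex that exports mRNA, were each listed at 0 in all 6 libraries. Their partners outside the stretch were well read, with Csnk2a1 at 11.6, Lsm4 at 39.6 and Thoc2 at 28.1 CPM per kb over the 6 libraries. Pfdn6, of the prefoldin chaperone, stood at 0.128 CPM per kb, and its partner Pfdn2 at 9.36. The bromodomain gene Brd2, which lies between H2-Oa and H2-DMa, stood at 0.0528 CPM per kb. Vars, the valine tRNA ligase, stood at 0.0701 CPM per kb, and Iars, its isoleucine counterpart, at 16.6. These pairs were chosen after their values were seen. Of windows of 50 bases, between 0 and 7.81% of those in the 6 genes within the stretch recur in another annotated gene. Only annotated transcripts were searched, so copies elsewhere in the sequence used for alignment were not looked for.

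Between H2-Oa and H2-Eb1 lie 6 other protein-coding genes, Brd2, H2-DMb2, Psmb9, Tap1, Psmb8 and Tap2. They had at most 31 counts in any library. Psmb9 and Psmb8, subunits of the immunoproteasome, and Tap2, of the peptide transporter, had at most 9 counts, and Tap1 had 18, 19 and 6 counts in WT and 31, 6 and 7 in Ocln-KO. How reads that align to several places were counted is not given in the sources used here, and why the stretch is low was not tested. The counts of the 7 members on chromosome 17 are therefore not taken here as a measure of how much class II mRNA the tissue held. The comparison between genotypes rests on Cd74 and Ciita, on chromosomes 18 and 16.

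**Figure D3:**
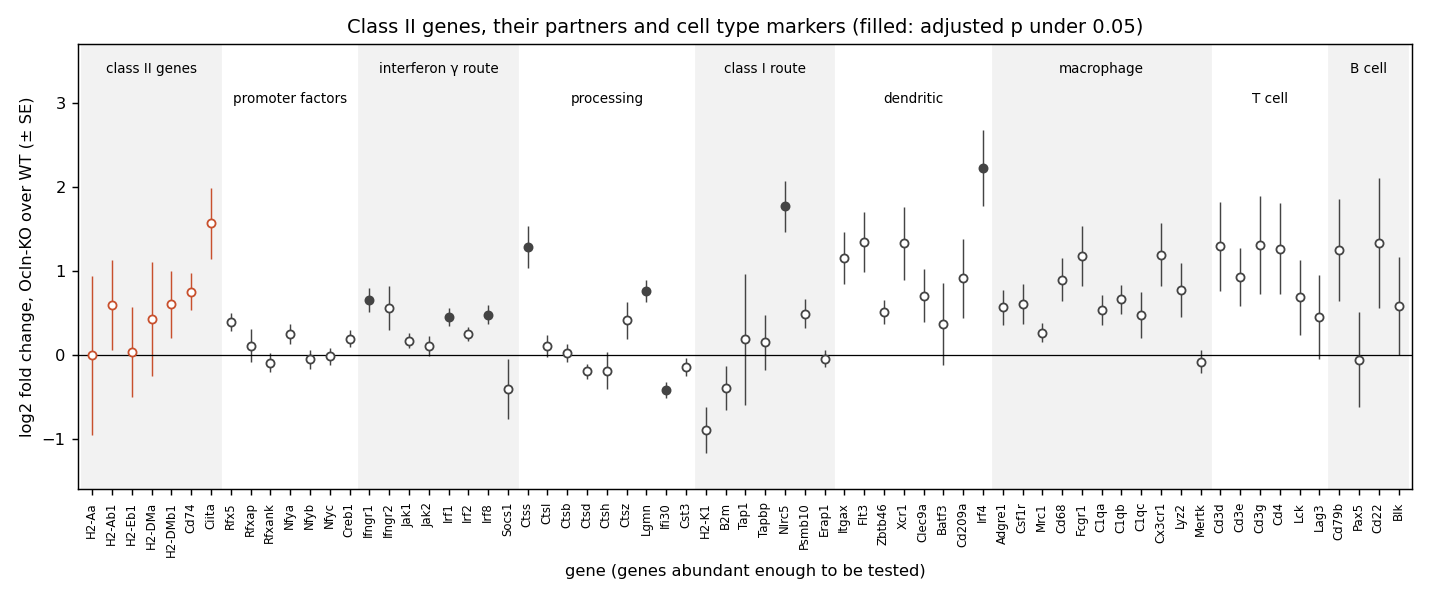
Log2 fold change (Ocln-KO over WT) with its SE for the tested class II genes, for genes that act with them and for cell type markers; filled points passed an adjusted p of 0.05 (edgeR). The class II genes are all open, with wide errors on chromosome 17, while Ifngr1, Irf1, Irf8, Ctss, Lgmn, Nlrc5 and Irf4 are filled above 0 and Ifi30 below 0.

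Factors that bind the class II promoter gave no call. Of 7 genes (Rfx5, Rfxap, Rfxank, Nfya, Nfyb, Nfyc and Creb1), all tested, 0 were called in either direction by edgeR, beside 8.95% of all genes tested. DESeq2 called 1 higher, beside 1604 of all genes, and limma-voom called 0. At an unadjusted p under 0.05 (edgeR), 1 was higher, beside 2734 of all 19691 genes tested. That gene was Rfx5, the subunit of the RFX complex that contacts DNA, at 19.8, 21.3 and 22.6 CPM in WT, against 29.5, 25.5 and 28.5 CPM in Ocln-KO. The Ocln-KO libraries of Rfx5 all lay above those of WT, and its log2 fold change was 0.39 (SE 0.11; edgeR adjusted p = 0.059). The list's median was 0.11, beside 0.0081 over all genes tested.

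The route from interferon γ to Ciita was called higher at 3 of its 9 tested genes, beside 3.91% of all genes tested. Ifngr1, a chain of the receptor, rose from 91.1, 89.8 and 94.4 CPM in WT up to 151, 113 and 168 CPM in Ocln-KO, a log2 fold change of 0.65 (SE 0.14; edgeR adjusted p = 0.0354). Irf1, which binds the Ciita promoter, rose from 29.3, 32.6 and 30.9 CPM to 47.4, 40.2 and 39.3 CPM, or 0.45 on the log2 scale (SE 0.10; edgeR adjusted p = 0.0401). Irf8, a factor of mononuclear phagocytes and B cells, rose from 13.4, 13.1 and 13.5 CPM to 17.4, 18.3 and 20.2 CPM, or 0.48 on the log2 scale (SE 0.12; edgeR adjusted p = 0.0448). For all 3 the groups did not overlap.

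Ifng itself had 1 count in 1 Ocln-KO library and 0 elsewhere. The list's median was 0.45, and 0 genes of it were called lower. Calls in the list numbered 0 with any 1 of the WT libraries left out, and 2, 1 and 3 as Ocln-KO replicates 1, 2 and 3 were left out in turn.

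The endosomal enzymes moved in both directions. Of 9 tested, 2 were called higher and 1 lower, beside 3.91% and 5.04% of all genes tested. Ctss, cathepsin S, which trims the invariant chain, rose from 22.3, 19.4 and 23.1 CPM in WT up to 32.1, 57.3 and 68.5 CPM in Ocln-KO, a log2 fold change of 1.28 (SE 0.25; edgeR adjusted p = 0.028). Lgmn, the asparaginyl endopeptidase of endosomes, rose from 126, 142 and 118 CPM to 244, 227 and 183 CPM, or 0.76 on the log2 scale (SE 0.13; edgeR adjusted p = 0.0213). Ifi30, the thiol reductase that opens disulphide bonds of antigens, fell from 76.9, 76.8 and 84.3 CPM to 59.2, 64.2 and 54.2 CPM, by 0.42 on the log2 scale (SE 0.09; edgeR adjusted p = 0.0376). For each of the 3 the groups did not overlap. The epithelium also uses such enzymes, and in whole tissue more cells of a type and more RNA per cell cannot be told apart. With any 1 of the WT libraries or Ocln-KO replicate 2 left out, 0 were called higher, with Ocln-KO replicate 1 or 3 left out 2 were, and the call of Ifi30 was lost without any 1 of the 6 libraries (adjusted p between 0.0604 and 0.128). The list's median was 0.02.

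Genes that act at the contact with T cells gave no call. Over all 19691 genes tested, 8.95% were called in either direction and 2734 were higher at an unadjusted p under 0.05 (edgeR). Of 6 tested here, 0 were called by edgeR and 2 were higher at that unadjusted cut. These were Icam1, an adhesion molecule, at 11.6 CPM in WT, against 15.6 CPM in Ocln-KO on average, with a log2 fold change of 0.42 (edgeR adjusted p = 0.0916), and Icosl, the ligand of ICOS, at 16.0 and 21.1 CPM, with 0.40 (edgeR adjusted p = 0.107). DESeq2 and limma-voom also called 0. The costimulatory ligands Cd80, Cd86 and Cd40 had estimates of 0.65, 0.19 and 0.48 with adjusted p-values of 0.519, 0.733 and 0.519 (edgeR).

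The class I route differed between its genes. Nlrc5, which does for class I what Ciita does for class II, rose from 4.78, 4.54 and 6.65 CPM in WT up to 25.0, 18.4 and 11.2 CPM in Ocln-KO, a log2 fold change of 1.77 (SE 0.30; edgeR adjusted p = 0.0216). Ocln-KO replicate 1 was its highest library and replicate 3 its lowest within Ocln-KO, whereas Ciita was highest in replicate 3. The call was lost with any 1 of the WT libraries or Ocln-KO replicate 2 left out (adjusted p up to 0.103), and held without Ocln-KO replicate 3. B2m, the light chain of class I, stood at 989, 1020 and 992 CPM in WT, against 646, 1130 and 513 CPM in Ocln-KO (log2 fold change -0.39; edgeR adjusted p = 0.363). H2-K1, which lies in the stretch of low counts, stood at 18.8 ± 8.02 and 10.1 ± 0.689 CPM (SD, n = 3; edgeR adjusted p = 0.0814), and H2-D1 was listed at 0 throughout. Of 7 tested, Nlrc5 was the only call, beside 8.95% of all genes tested called in either direction.

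**Figure D4:**
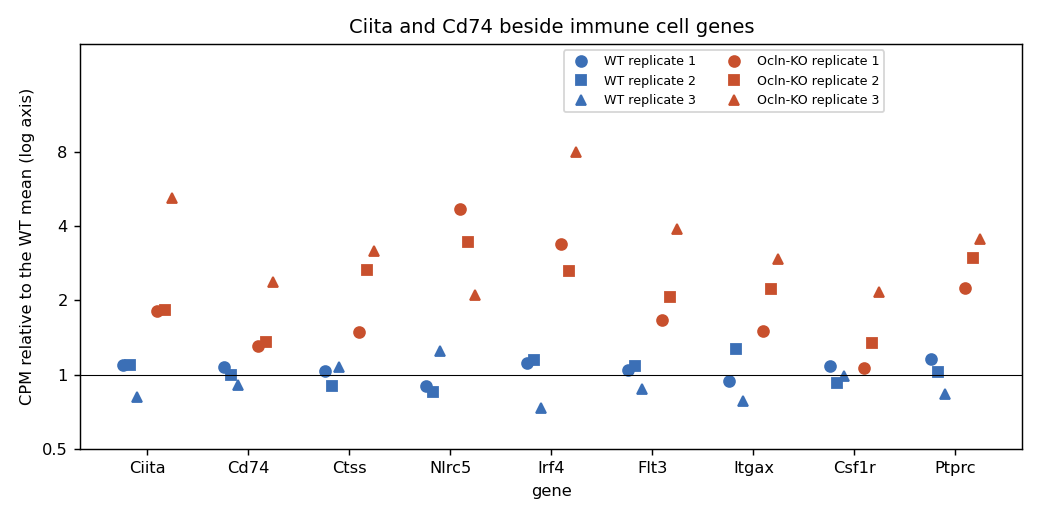
CPM of Ciita, Cd74 and 7 other genes in each library, relative to the WT mean of the gene, on a log axis. In Ocln-KO replicate 3 (triangles) Ciita, Cd74, Ctss, Irf4, Flt3, Itgax, Csf1r and Ptprc are at their highest, and Nlrc5 is at its lowest among the Ocln-KO libraries.

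Of the markers of dendritic cells, macrophages and B cells, the usual users of class II, 1 was called higher and 0 lower. Over all 19691 genes tested, 3.91% were called higher and 5.04% lower. Before adjustment, 2734 of all genes tested were higher at a p under 0.05 (edgeR) and 2989 lower. Most of the markers had estimates above 0. Dendritic cell markers summed to between 19.8 and 24.1 CPM in WT, against between 35.1 and 58.2 CPM in Ocln-KO, the highest being replicate 3. Of 8 tested, all had estimates above 0, 1 was called higher and 5 were higher at an unadjusted p under 0.05, with a median of 1.03. The call was Irf4, a factor of a dendritic cell subset and of activated lymphocytes, at 1.47, 1.52 and 0.969 CPM in WT, against 4.46, 3.48 and 10.6 CPM in Ocln-KO (log2 fold change 2.22, SE 0.46; edgeR adjusted p = 0.0314), and it was lost with any 1 of the WT libraries left out but not without Ocln-KO replicate 3. Flt3, a receptor of dendritic cells, stood at 1.95, 2.02 and 1.64 CPM in WT, against 3.12, 3.86 and 7.28 CPM in Ocln-KO (edgeR adjusted p = 0.0543).

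Macrophage markers summed to between 287 and 306 CPM in WT, against between 319 and 537 CPM in Ocln-KO. Of 11 tested, 0 were called by edgeR, and 8 were higher at an unadjusted p under 0.05. DESeq2 called 5 higher and limma-voom 0, beside 1604 and 729 of all genes. With Ocln-KO replicate 1 left out edgeR called 7 higher, beside 782 of all genes. With Ocln-KO replicate 3 left out it called 1, beside 748 of all genes. Csf1r, the growth factor receptor of macrophages, stood at 38.2, 32.6 and 34.8 CPM in WT, against 37.4, 47.1 and 75.9 CPM in Ocln-KO, with overlapping groups. The list's median was 0.60.

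Lymphocyte markers were few. B cell markers summed to between 1.45 and 1.61 CPM in WT, against between 1.90 and 5.27 CPM in Ocln-KO, with 0 of 4 called by edgeR, DESeq2 or limma-voom and 0 at an unadjusted p under 0.05. T cell markers summed to between 3.21 and 3.90 CPM in WT, against between 6.02 and 9.29 CPM in Ocln-KO, with 0 of 6 called by the same tools. At an unadjusted p under 0.05 (edgeR), 3 T cell markers were higher, beside 2734 of all 19691 genes tested. Cd4, the coreceptor that binds class II, had 26, 21 and 37 counts in WT and 22, 61 and 100 in Ocln-KO.

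Ptprc, the CD45 antigen of all leukocytes, rose from 15.1, 13.3 and 10.8 CPM in WT up to 29.2, 38.6 and 46.3 CPM in Ocln-KO, a log2 fold change of 1.54 (SE 0.19; edgeR adjusted p = 0.011). The groups of Ptprc did not overlap, and the call was lost without WT replicate 1 or 3, with adjusted p up to 0.0643. Of the 5 leukocyte genes listed, 4 were tested. Of these 4, Ptprc was called higher and 0 were called lower, beside 3.91% and 5.04% of all genes tested. At an unadjusted p under 0.05 (edgeR), 3 were higher and 1, Cd52, was lower, beside 2734 and 2989 of all 19691 genes tested. Cd52, which is also a product of the epididymal epithelium, averaged 2550 CPM over the WT libraries and 1080 CPM over those of Ocln-KO, with no overlap (log2 fold change -1.24; edgeR adjusted p = 0.127). With Cd52 the list summed to between 2360 and 2740 CPM in WT and between 428 and 1690 CPM in Ocln-KO, and without it to between 24.3 and 30.9 CPM and between 46.0 and 79.7 CPM. With Ocln-KO replicate 3 left out, 1 gene of the list was called higher and 1 lower. Markers of the epithelium summed to between 26700 and 31100 CPM in WT, against between 18300 and 25800 CPM in Ocln-KO, lowest in replicate 3. Most of that difference lay in Crisp1, at 14900 and 7850 CPM on average, while Lcn5 stood at 4930 and 5060 CPM and Krt18 at 453 and 453 CPM. The median log2 fold change of the list was -0.05, with 0 of 8 called by edgeR, 1 lower at an unadjusted p under 0.05, 1 called lower by DESeq2, 0 by limma-voom and 1 lower by edgeR with Ocln-KO replicate 3 left out. The part of these shifts in the values of Ciita and Cd74 was not tested.

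Cd74 and Ciita were also set against other genes of the same library. In all, 12 ratios of counts were compared by exact two-sided permutation of the 6 libraries, a test that with 3 against 3 cannot give a p under 0.1. The ratios of Cd74 to Flt3 and to Csf1r and those of Ciita to Ptprc, to Flt3 and to Cd74 were added after the values were seen. There were 8.23, 8.70 and 9.63 counts of Cd74 for each count of Ptprc in WT and 5.14, 4.04 and 5.90 in Ocln-KO. The mean log2 ratio, Ocln-KO minus WT, was -0.83, and the groups did not overlap (exact permutation p = 0.1, adjusted 0.3). Against Flt3 the ratio of Cd74 lay lower in every Ocln-KO library, at 63.6, 57.1 and 63.3 in WT and 48.1, 40.5 and 37.5 in Ocln-KO (exact permutation p = 0.1, adjusted 0.3). Flt3 is among the genes whose profile is most like that of Ciita, so this ratio and that of Ciita to Cd74 below are not separate results. Against Csf1r the ratio of Cd74 was 3.25, 3.54 and 2.99 in WT and 4, 3.32 and 3.60 in Ocln-KO, with overlapping groups (exact permutation p = 0.2, adjusted 0.48).

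Ciita to Ptprc was 0.294, 0.336 and 0.304 in WT and 0.252, 0.193 and 0.457 in Ocln-KO, so that Ocln-KO replicate 3 lay above WT and the other 2 below it (exact permutation p = 0.7, adjusted 0.84). Ciita to Flt3 was 2.27, 2.20 and 2 in WT and 2.36, 1.93 and 2.91 in Ocln-KO, given as values alone because Flt3 is among the genes whose profile is most like that of Ciita, so that an even ratio follows from the choice. Ciita to Cd74 was higher in every Ocln-KO library, at 0.0358, 0.0386 and 0.0316 in WT and 0.0491, 0.0476 and 0.0776 in Ocln-KO, a log2 difference of 0.69 (exact permutation p = 0.1, adjusted 0.3). None of these ratios passed an adjusted p of 0.05, which the design cannot reach.

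**Figure D5:**
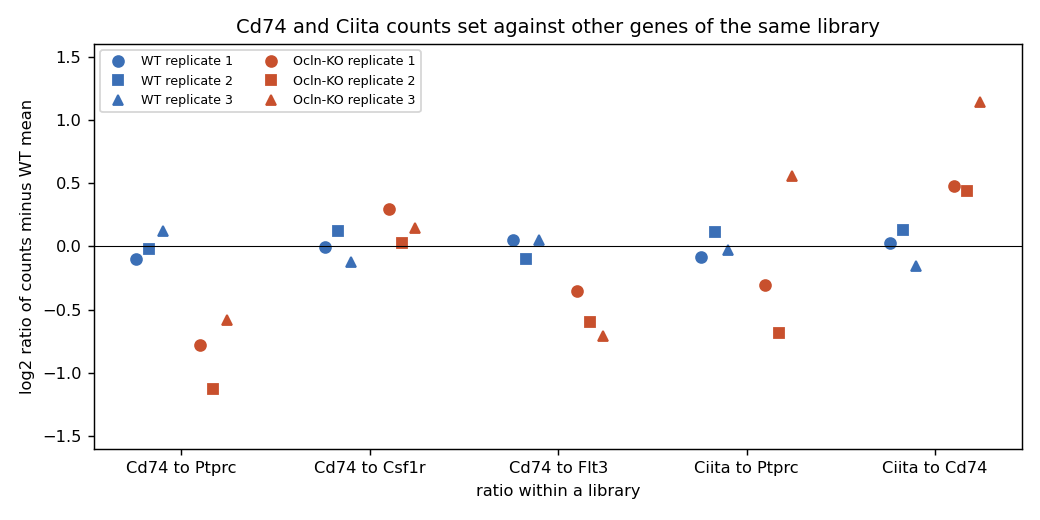
Log2 ratio of the counts of Cd74 or Ciita to those of another gene in the same library, minus the WT mean of that ratio, for 3 WT and 3 Ocln-KO libraries. Cd74 to Ptprc and Cd74 to Flt3 lie below 0 in all Ocln-KO libraries, Ciita to Cd74 lies above, Cd74 to Csf1r overlaps with WT, and Ciita to Ptprc spreads to both sides.

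The ratios among genes of chromosome 17 rested on a few counts. The surface chains H2-Aa, H2-Ab1 and H2-Eb1 together gave 0.0656, 0.161 and 0.147 counts for each count of Ptprc in WT and 0.0438, 0.0276 and 0.0639 in Ocln-KO (exact permutation p = 0.1, adjusted 0.3). H2-Eb1 to H2-Aa ran from 0.255 to 2.90 in WT and from 0.705 to 2.20 in Ocln-KO (exact permutation p = 1, adjusted 1). H2-Ab1 to H2-Aa differed by 0.70 on the log2 scale (exact permutation p = 0.5), H2-DMb1 to H2-DMa by 0.15 (exact permutation p = 0.8), Ciita to H2-Aa by 1.40 (exact permutation p = 0.3) and Cd74 to the sum of the surface chains by 0.61 (exact permutation p = 0.3), with overlapping groups in each. As single libraries were left out, these differences ran from -0.04 to 1.35 for H2-Ab1 to H2-Aa, from -0.24 to 0.85 for H2-DMb1 to H2-DMa, from -1.15 to 0.60 for H2-Eb1 to H2-Aa, from 0.64 to 1.98 for Ciita to H2-Aa and from 0.36 to 0.97 for Cd74 to the surface chains. The difference of the surface chains to Ptprc ran from -1.85 to -1.13.

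The genes whose profile over the 6 libraries was most like that of the class II genes were sought among 16355 genes with a mean of at least 1 CPM, by the root mean square difference between log2 profiles centred on their own means. For the mean profile of H2-Aa, H2-Ab1, H2-Eb1 and Cd74 they were Gm11478, L3mbtl1, Accs, LOC102635948 and Gpr4, at differences of 0.13 to 0.156, and 3 of the 4 genes in that mean carry the low counts described above. For Cd74 alone they were Lsp1, Unc93b1, Cmtm3, Greb1l and Myo1f, at differences of 0.0549 to 0.0804. Lsp1 stood at 17.3, 17.1 and 14.7 CPM in WT, against 20.3, 23.5 and 37.6 CPM in Ocln-KO, and was highest in Ocln-KO replicate 3, as Cd74 was. For Ciita alone they were Mmp19, Nlrp1c-ps, Flt3, Mmp2 and Lum, at differences of 0.184 to 0.202. Of these 15 genes, Unc93b1, a carrier of Toll-like receptors to endosomes, had an adjusted p under 0.05 (log2 fold change 0.83; edgeR adjusted p = 0.0474). The searches for Cd74 and Ciita alone were added after the values were seen.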

How the data were processed

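The values the authors deposited are raw counts of reads per gene, 1 column per library and not normalized. According to the methods, total RNA was depleted of rRNA and made into directional paired-end libraries, and the submitters' processing notes name HISAT2 version 2.0.4 and the build GRCm38, while HTSeq did the counting per the methods. The strand setting and the handling of reads with several alignments are not given in the sources used here. All 6 columns were matched to samples by name, and 0 were left over. Sums per library ran from 30646424 to 38870780 counts, so 1 count equals 0.0267 to 0.0314 CPM.

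In R 4.3.3, genes were filtered with filterByExpr (19691 of 32046 genes with a count kept), scaled by TMM and compared with edgeR 4.0.16 (glmQLFit, glmQLFTest), and p-values were adjusted by Benjamini-Hochberg over every gene in the fit. A gene was called at an adjusted p under 0.05. Each SE was taken as the size of the log2 estimate over the root of its F statistic. The script was tested on simulated data. Ratios were compared by exact permutation in Python 3.11.15 with scipy 1.17.1. The replicate numbers gave no sign of pairing: same-numbered libraries deviated together with correlations of -0.0525, -0.0315 and -0.00256. With 3 libraries per group these correlations cannot settle whether libraries were paired, and the methods speak of 3 pairs of mice. Alternatives were DESeq2 1.42.0, limma-voom (limma 3.58.1), RLE factors, total counts, other count filters, a replicate block and leaving out each library.

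Levels between genes were divided by GENCODE M21 exon length. Coordinates and promoters are RefSeq GRCm38.p6. Shared sequence was counted as windows of 50 bases found in transcripts of another gene. Besides the members, the text names Ocln, genes of the route and markers fixed in lists, up to 4 called genes per list and direction, the genes between H2-Oa and H2-Eb1 and the 5 nearest profiles. The members and lists were chosen with earlier results of these data known. Single genes of these lists that enter the counts but are not named are not reported here.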

Additional observations from a re-analysis of the deposited data

How the results depend on the processing

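Calls at an adjusted p under 0.05 depended on the test. The class II genes called higher numbered 0 in the edgeR fit, 2 with DESeq2, 1 with total counts only, 2 with no count filter and 0 to 2 as single libraries were left out. Over all genes, 770 were called higher and 992 lower by edgeR, 1604 and 1708 by DESeq2, 1175 and 674 with total counts only, and 4 to 782 higher and 19 to 944 lower as single libraries were left out (4 and 19 without WT replicate 1). With a replicate block, 10 genes were called higher and 31 lower, and whether the numbers pair the libraries is not settled. With that block the calls in the interferon γ route (3), the endosomal enzymes (2 higher, 1 lower), the class I route (1), the dendritic cell markers (1) and the leukocyte genes (1) all went to 0. The promoter factors had 1 call higher with DESeq2 and 1 with total counts only. The class I route had 1 call lower with DESeq2 and 1 with no count filter, and the endosomal enzymes had 0 calls lower with total counts only. Dendritic cell markers called higher numbered 4 with DESeq2, 0 with limma-voom, 4 with total counts only and 3 with no count filter; macrophage markers 5 with DESeq2, 1 with total counts only and 3 with no count filter; T cell markers 1 with no count filter; leukocyte genes 3 with DESeq2, 2 with total counts only and 2 with no count filter. Epithelial markers called lower numbered 1 with DESeq2 and 1 with no count filter. As single libraries were left out, calls higher ran from 0 to 3 in the interferon γ route, 0 to 2 among the endosomal enzymes (0 lower), 0 to 1 in the class I route (0 to 1 lower), 0 to 3 among dendritic cell markers, 0 to 7 among macrophage markers, 0 to 2 among T cell markers and 0 to 3 among leukocyte genes (0 to 1 lower), and epithelial markers called lower from 0 to 1.

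Among the members, directions turned for H2-Aa, H2-Eb1 and H2-DMa, all at low counts, and for no other. H2-Aa was at 0.052 with limma-voom, 0.0037 with RLE factors, 0.080 with total counts only and 0.14 with the replicate block on the log2 scale, and between -1.20 and 1.33 as single libraries were left out. H2-Eb1 was at -0.0077 with limma-voom, -0.0033 with the replicate block and between -0.45 and 0.32 without single libraries, and H2-DMa between -0.18 and 0.71. The cause was not tested. Dividing by exon length shifts a ratio of 1 gene to 1 other alike in all libraries and leaves its difference as it was. With a sum of chains the difference moved slightly. It went from 0.6126 to 0.6135 for Cd74 to the surface chains and from -1.4438 to -1.4448 for the surface chains to Ptprc. Under the fold thresholds of the methods, 0 members were called by edgeR, whereas Ciita passed with DESeq2 (log2 fold change 1.57, DESeq2 adjusted p = 0.0016). At these depths the members on chromosome 17 that could be tested carried SEs of 0.40 to 0.95 on the log2 scale.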

Other observations

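Of 4 other class I relatives on chromosome 17, 3 were called higher in Ocln-KO by edgeR, beside 3.91% of all genes tested. The 4 were chosen after their values were seen, so this count is no measure of the family. Their calls were not followed through the other fits or with libraries left out. H2-Q4 lies within the stretch of low counts and H2-T22, H2-T23 and H2-T24 lie beyond it. H2-T23, the mouse Qa-1 antigen, stood at 12.8, 12.8 and 15.4 CPM in WT, against 30.8, 76.1 and 32.3 CPM in Ocln-KO, with no overlap and a log2 fold change of 1.77 (SE 0.34; edgeR adjusted p = 0.0273). H2-T24 (log2 fold change 1.80; edgeR adjusted p = 0.0462) and H2-Q4 (1.23; edgeR adjusted p = 0.0465) were also called higher, and H2-T22 was not (0.33; edgeR adjusted p = 0.249). H2-T23, H2-T24 and H2-Q4 were highest in Ocln-KO replicate 2, whereas Ciita and Cd74 were highest in Ocln-KO replicate 3. These genes belong to a family of near copies, and how the counting split reads among them is not given in the sources used here.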
